A study of Mus musculus with 8 samples.

Results

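Telomerase and the proteins that coat chromosome ends were followed while mouse embryonic fibroblasts (MEFs) were reprogrammed to induced pluripotent stem cells (iPSCs). The set held 10 genes chosen by name, all of which were found among the 17922 rows of the expression table, each on a single row. They were the telomerase genes Tert and Dkc1 and the 6 shelterin genes Terf1, Terf2, Terf2ip, Tinf2, Acd and Pot1a. Rtel1 and Rif1, in neither group, completed the set. All 10 were at or above 1 FPKM (fragments scaled to gene length and library size) in every library, so none was lost to a filter on low values.

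The MEFs came from C57BL/6 fetuses at day 13.5 that carried tetO-OSKM, a doxycycline-driven copy of the reprogramming factors. Long RNA was sequenced once at each of 4 stages, namely uninduced MEFs (day 0), induced cells on day 3 and day 6, and fully reprogrammed iPSCs derived from MEFs, all of C57BL/6. Induction used 2 ug/ml doxycycline in a serum-replacement medium with 1000 U/mL LIF and 3 uM CHIR99021. No sorting of the day 3 and day 6 cultures is described, and neither the passage of the iPSCs nor whether they still received doxycycline is given in the labels.

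With 1 library per stage there was no replicate, no test and no error, and a gene was called higher or lower by size alone. The rule asked for a difference of at least 1 in log2(FPKM + 1) and at least 1 FPKM in the higher library. The FPKM columns summed to between 438130 and 486609, and the spacing of the lowest values put the day 3 library at about 0.64 of the fragments of the MEF library and the day 6 and iPSC libraries at 1.04. The labels were set beside defining markers. All 9 fibroblast markers were at or above 1 FPKM through day 6, with a summed level of 7216 to 7550 FPKM, against 196 in iPSCs. The 9 pluripotency markers summed to 1.39 FPKM in MEFs, 5.23 on day 3, 12.3 on day 6 and 2011 in iPSCs. On day 3 and day 6 that sum was mostly Pou5f1 and Sox2, both genes of the induced cassette, with Cdh1. In MEFs, on day 3 and on day 6, Pou5f1 was at 0.226, 3.03 and 8.56 FPKM and Sox2 at 0.411, 1.19 and 2.03. Cdh1 stood at 0.0818, 0.431 and 1.14, and Nanog at 0.398, 0.270 and 0.241. The 7 macrophage and leukocyte markers found summed to between 51.3 and 72.3 FPKM in the 4 libraries, a sum of opposite differences. Of 5 compared between iPSCs and MEFs 3 were lower and 1 was higher, beside 25% lower and 21.1% higher over all genes compared. Lyz2 had 52.9 FPKM in MEFs and 0.0298 in iPSCs, Ptprc and Emr1 were listed at 0 in iPSCs, and most of the iPSC sum was Laptm5 (4.31 and 38.5 FPKM) and Cd68 (8.45 and 11.9). Their part in the differences below was not tested. In such bulk RNA, fewer cells of a type and less RNA per cell cannot be told apart.

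Telomerase is a reverse transcriptase that adds short repeats to chromosome ends and offsets the loss of sequence at each replication. TERT is its catalytic subunit, and dyskerin, encoded by Dkc1, binds and stabilises its RNA template. Shelterin protects the repeats from being read as broken DNA. TRF1 and TRF2 (Terf1, Terf2) bind the double-stranded repeats, RAP1 (Terf2ip) binds TRF2, TIN2 (Tinf2) bridges TRF1 and TRF2, and TPP1 (Acd) joins TIN2 to POT1a, which covers the single-stranded overhang. TPP1 also brings telomerase to the end. Pluripotent stem cells are known for high telomerase activity and for lengthening telomeres as they are derived.

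In iPSCs 6 of the 10 genes were higher than in MEFs and 0 were lower. The 6 were Tert, Dkc1, Terf1, Tinf2, Pot1a and Rif1. Over all 12937 genes compared, 21.1% were called higher and 25% lower. The median difference of the 10 genes was 1.20 on the log2 scale, beside -0.045 over all genes compared, and 0.77 with a pseudocount of 5. Against day 6 the count was again 6 higher and 0 lower, in a comparison that shares the iPSC library, where 20.4% of 12951 genes were called higher and 23.4% lower. Before the iPSC stage 0 of the 10 genes were called in either direction. The background there was also low, with 0.17% of genes called higher and 0.0511% lower on day 3 against MEFs, 0.457% and 0.398% on day 6 against day 3, and 0.77% and 0.584% on day 6 against MEFs.

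**Figure D1:**
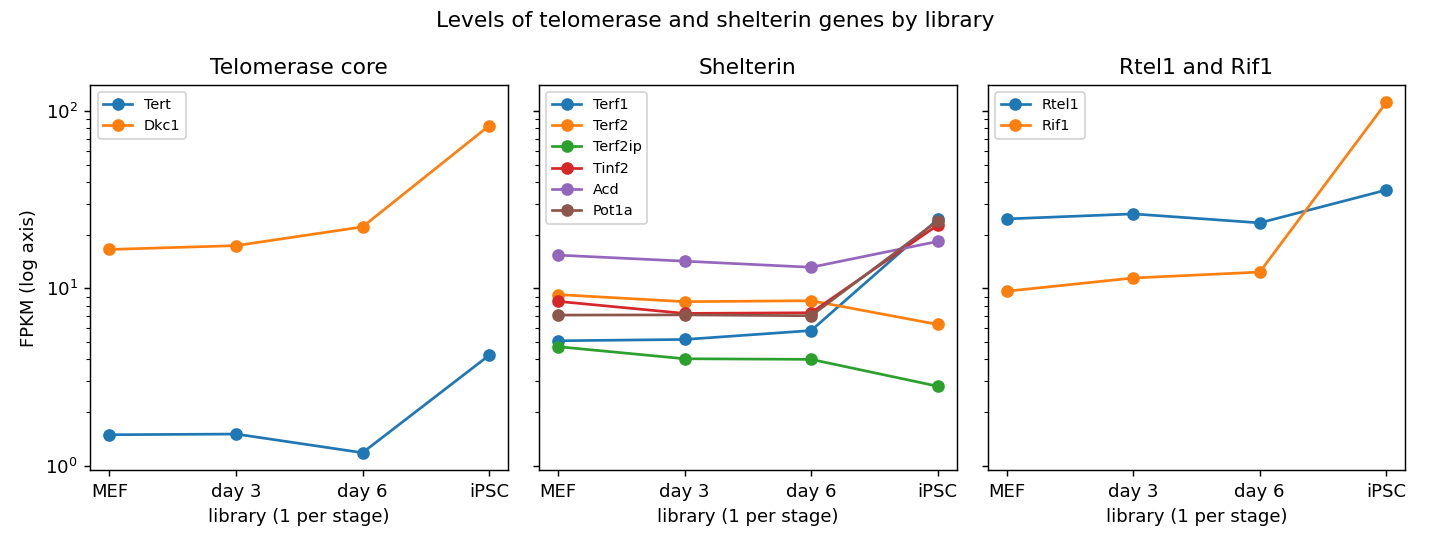
Levels of the 10 genes in the 4 libraries, in FPKM on a log axis, for the telomerase core, the 6 shelterin genes, and Rtel1 with Rif1. Each point is 1 library, without error; the lines stay nearly level through day 6, and most of the difference lies between day 6 and iPSCs, where Terf2 and Terf2ip are the lower exceptions.

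Tert was the weakest of the 10 genes through day 6. It stood at 1.49 FPKM in MEFs, 1.51 on day 3, 1.18 on day 6 and 4.19 in iPSCs. The iPSC library was thus the high one, 2.81-fold above MEFs and 3.55-fold above day 6 in plain FPKM, and the other three lay close together. On the log2(FPKM + 1) scale the difference from MEFs was 1.06, just past the rule, and with a pseudocount of 5 it was 0.50 and no longer called. In rank, Tert stood above 38.2% of all rows in MEFs, 36.4% on day 6 and 50.6% in iPSCs, so that it was near the middle of all rows at its highest.

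Dkc1, whose product also modifies ribosomal RNA in H/ACA particles, was the second most abundant of the set in all 4 libraries. It was at 16.6 FPKM in MEFs, 17.4 on day 3, 22.3 on day 6 and 82.8 in iPSCs. The difference between iPSCs and MEFs was 2.25 on the log2 scale, or 4.99-fold in FPKM. Day 6 was the highest of the 3 early libraries, 0.40 above MEFs on the log2 scale, which was within the rule and above 94.5% of all genes compared between those libraries. The ratio of Dkc1 to Tert in FPKM was 11.1 in MEFs, 11.6 on day 3, 18.8 on day 6 and 19.8 in iPSCs.

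The 6 shelterin genes did not move as a block. In iPSCs 3 of 6 were higher than in MEFs by the rule (Terf1, Tinf2 and Pot1a) and 3 were within it (Acd, Terf2 and Terf2ip). Over all genes compared, 21.1% were called higher and 25% lower. The sum of the 6 was 49.9 FPKM in MEFs, 46.1 on day 3, 45.7 on day 6 and 98.8 in iPSCs.

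Terf1, which binds the double-stranded repeat and aids its replication, was at 5.06, 5.15 and 5.78 FPKM in MEFs, on day 3 and on day 6, and at 24.5 FPKM in iPSCs. Only the iPSC library was clearly high, with a log2 difference of 2.07 from MEFs and a ratio of 4.84. Terf1 was the fifth-ranked shelterin gene in MEFs and the first in iPSCs.

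Tinf2, the bridge between the double-stranded and single-stranded binding proteins, was at 8.45 FPKM in MEFs, 7.22 on day 3, 7.29 on day 6 and 22.8 in iPSCs. Pot1a, which covers the overhang, was at 7.07, 7.09, 7.01 and 24.1 FPKM. In both genes the first 3 libraries were near each other and the iPSC library stood above them, with log2 differences from MEFs of 1.33 for Tinf2 and 1.64 for Pot1a. Pot1b, the second POT1 gene of the mouse, had 1.22 FPKM in MEFs and 1.42 in iPSCs, within the rule. The ratio of Pot1a to Pot1b was between 5.57 and 5.81 through day 6 and 17.0 in iPSCs.

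Acd, whose product recruits telomerase, was the most abundant shelterin transcript in MEFs and stood within the rule throughout. It was at 15.4 FPKM in MEFs, 14.2 on day 3, 13.2 on day 6 and 18.4 in iPSCs, a log2 difference of 0.24 between iPSCs and MEFs.

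Terf2 and Terf2ip, which encode the partners TRF2 and RAP1, had lower values in iPSCs than in every earlier library, although neither passed the rule. Terf2 was at 9.23 FPKM in MEFs, 8.42 on day 3, 8.52 on day 6 and 6.26 in iPSCs. Terf2ip was at 4.69, 4.01, 3.98 and 2.80 FPKM. The log2 differences from MEFs were -0.49 and -0.58, and they kept their sign under all 3 rescalings of the libraries. These differences were above only 36.8% and 34.8% of the genes compared, so values this low or lower were common among all genes. The ratio of Terf2 to Terf2ip was 1.97 in MEFs, 2.10 on day 3, 2.14 on day 6 and 2.23 in iPSCs, whereas the ratio of Terf1 to Terf2 was 0.549, 0.612 and 0.678 in the first 3 libraries and 3.92 in iPSCs.

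The makeup of the shelterin transcripts was alike in MEFs, on day 3 and on day 6, and it differed in the single iPSC library. FPKM is scaled to length, so levels of these genes can be set beside each other, within the accuracy of the gene models. Terf1 made up 10.1% of the summed FPKM of the 6 genes in MEFs, 11.2% on day 3, 12.6% on day 6 and 24.8% in iPSCs. Terf2 made up 18.5%, 18.2%, 18.6% and 6.34%. Terf2ip went from 9.39% in MEFs to 2.84% in iPSCs, and Acd from 30.9% to 18.6%. In iPSCs Terf1, Pot1a and Tinf2 were nearly even, at 24.8%, 24.4% and 23.0%. Transcript shares do not give the makeup of the protein complex, which was not measured.

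**Figure D2:**
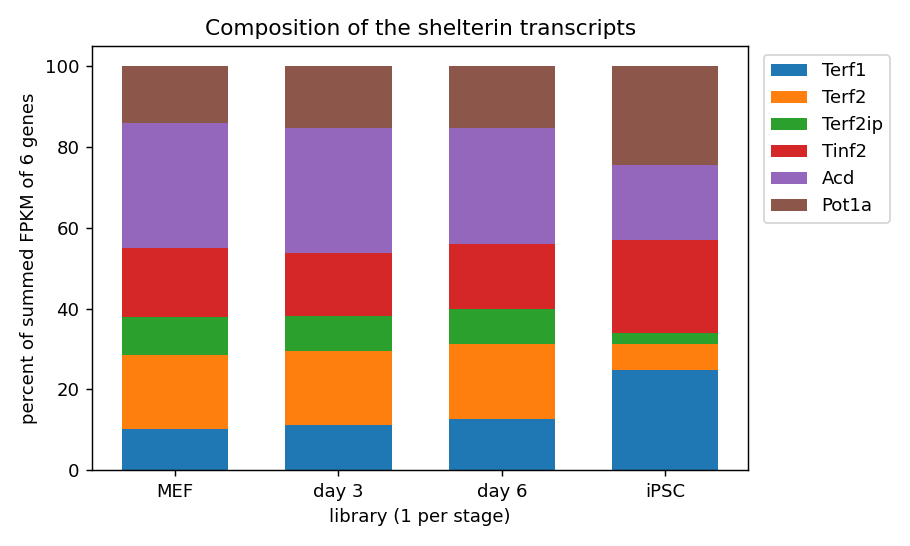
Share of each of the 6 shelterin genes in their summed FPKM (percent), in the 4 libraries, 1 per stage and without error. The first 3 bars are alike, while in iPSCs the Terf1 share is 24.8% against 10.1% in MEFs and the Terf2 share 6.34% against 18.5%.

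Rif1 showed the greatest difference of the 10 genes. RIF1 binds dysfunctional telomeres, steers the repair of broken DNA and sets the timing of replication, and its gene is known for high expression in mouse embryonic stem cells. It was at 9.64 FPKM in MEFs, 11.5 on day 3, 12.4 on day 6 and 112 in iPSCs. The iPSC value was 11.6-fold that of MEFs, a log2 difference of 3.41, which was above 98.1% of the genes compared. Day 3 and day 6 were above MEFs by 0.23 and 0.33 on the log2 scale, within the rule. Through day 6 Rif1 stood behind Rtel1, Dkc1 and Acd, and in iPSCs it stood above all 9 others.

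Rtel1, a helicase that unwinds telomeric loops and G-quadruplexes, was the most abundant of the 10 genes through day 6. It was at 24.7 FPKM in MEFs, 26.3 on day 3, 23.4 on day 6 and 35.9 in iPSCs. The iPSC library was the highest, but the log2 difference from MEFs of 0.53 was within the rule.

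**Figure D3:**
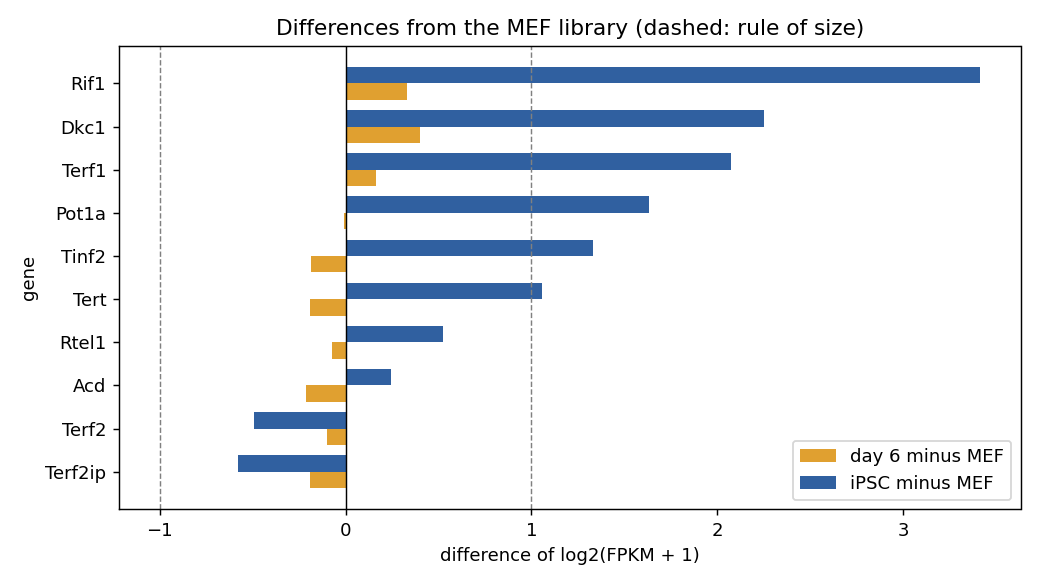
Differences of the 10 genes from the MEF library in log2(FPKM + 1), for day 6 and for iPSCs, with 1 library per stage and no error. Dashed lines mark the rule of size at 1 and -1; the day 6 bars lie between -0.21 and 0.40, and the iPSC bars between -0.58 and 3.41, with 6 beyond the rule.

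The order of levels among the 10 genes was identical in MEFs, on day 3 and on day 6, running from Rtel1 through Dkc1, Acd, Rif1, Terf2, Tinf2, Pot1a, Terf1 and Terf2ip to Tert. In iPSCs it ran from Rif1 through Dkc1, Rtel1, Terf1, Pot1a, Tinf2, Acd, Terf2 and Tert to Terf2ip. The span from the lowest to the highest gene was 16.5-fold in MEFs and 40.0-fold in iPSCs. Without replicates there is no spread by which to separate neighbours in these orders, such as Terf1, Pot1a and Tinf2 in iPSCs at 24.5, 24.1 and 22.8 FPKM.

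Some of the 10 genes share genomic sequence with a neighbour, and the strand setting of the counting is not stated in the labels. Reads from a shared stretch then cannot be assigned with certainty. On assembly GRCm38, Tinf2 overlaps Gmpr2 (11.8 FPKM in MEFs and 7.47 in iPSCs), Dkc1 overlaps Mpp1 (47.7 and 34.8), Acd overlaps Pard6a (3.88 and 3.79) and Terf2ip overlaps the pseudogene Gm6793 (0.131 and 0.276). Gmpr2 and Mpp1 had lower values in iPSCs, Pard6a was nearly equal, and Gm6793 had a higher value, far below 1 FPKM. Other overlapping genes were not found under their current symbols, namely Carmil2 at Acd, Gm25520 at Dkc1, and Mir7075 and LOC108167553 at Terf2. Older symbols were not looked up for these genes, so they may stand on a row and no values are given.

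To show the sequence that lies before genes of either pattern, the 250 bases upstream of the annotated start are given for Tert, Pot1a, Dkc1 and Tinf2, the genes higher in iPSCs for which a window was found, and for Terf2 and Terf2ip, which had lower values there. The sequences are from RefSeq on assembly GRCm38.p6, not on the mm9 build of the expression table, and read 5′ to 3′ on the strand of the gene. Capitals mark GGGCGG, the GC box bound by SP1, or CCAAT, in either orientation, and the windows of Dkc1, Tinf2 and Terf2ip hold neither.
Tert, chr13:73626661-73626910, plus strand: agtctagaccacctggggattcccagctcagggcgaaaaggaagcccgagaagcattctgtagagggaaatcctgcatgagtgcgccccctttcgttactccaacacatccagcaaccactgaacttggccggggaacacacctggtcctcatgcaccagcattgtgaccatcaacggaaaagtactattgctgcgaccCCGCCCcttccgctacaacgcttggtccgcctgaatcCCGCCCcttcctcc
Pot1a, chr6:25809219-25809468, minus strand: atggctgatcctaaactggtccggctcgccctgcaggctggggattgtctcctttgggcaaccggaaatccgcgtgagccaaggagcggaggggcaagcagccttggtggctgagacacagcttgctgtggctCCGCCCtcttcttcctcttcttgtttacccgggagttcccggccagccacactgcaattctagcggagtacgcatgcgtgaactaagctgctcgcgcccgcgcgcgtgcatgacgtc
Dkc1, chrX:75095604-75095853, plus strand: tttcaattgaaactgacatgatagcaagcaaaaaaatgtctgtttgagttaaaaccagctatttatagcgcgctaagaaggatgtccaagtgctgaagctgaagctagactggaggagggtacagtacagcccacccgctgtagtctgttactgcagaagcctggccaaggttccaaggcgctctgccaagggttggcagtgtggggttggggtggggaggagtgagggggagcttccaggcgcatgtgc
Tinf2, chr14:55681818-55682067, minus strand: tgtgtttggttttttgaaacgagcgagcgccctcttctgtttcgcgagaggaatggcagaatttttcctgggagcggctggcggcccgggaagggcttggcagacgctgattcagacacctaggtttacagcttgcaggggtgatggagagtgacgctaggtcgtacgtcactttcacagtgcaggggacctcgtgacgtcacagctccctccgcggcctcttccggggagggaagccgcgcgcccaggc
Terf2, chr8:107096546-107096795, minus strand: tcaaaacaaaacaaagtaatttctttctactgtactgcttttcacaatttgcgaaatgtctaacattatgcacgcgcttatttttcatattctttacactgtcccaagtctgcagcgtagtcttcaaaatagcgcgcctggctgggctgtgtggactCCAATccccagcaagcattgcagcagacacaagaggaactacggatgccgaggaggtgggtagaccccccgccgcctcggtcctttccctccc
Terf2ip, chr8:112011109-112011358, plus strand: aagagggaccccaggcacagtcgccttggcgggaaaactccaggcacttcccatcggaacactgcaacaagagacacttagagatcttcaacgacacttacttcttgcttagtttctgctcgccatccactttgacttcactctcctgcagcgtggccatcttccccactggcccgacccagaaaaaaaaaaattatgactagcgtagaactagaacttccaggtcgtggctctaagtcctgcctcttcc
Upstream sequence was found for 8 of the 10 genes, and not for Terf1 and Rif1. On both strands, GGGCGG was present in 3 of the 8 (Tert, Pot1a and Rtel1), beside 32.7% of 32851 RefSeq upstream windows of the same length. CCAAT was present in 2 of the 8 (Terf2 and Acd), beside 33.9% of windows. The E-box CACGTG, a site for MYC and its partners, and the octamer ATTTGCAT were in 0 of the 8, beside 6.02% and 1.60% of windows. The motifs do not overlap each other in the windows shown, and a match is a description of letters and not of binding.

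Genes that assemble telomerase were mostly higher or within the rule in iPSCs. Of 17 listed genes 16 were found, and 7 were higher and 1 lower than in MEFs, beside 21.1% higher and 25% lower over all genes, with a list median of 0.85 beside -0.045. The RNA template gene Terc stood on no row and is not analysed here. Ruvbl2, an ATPase that helps assemble the enzyme, had 16.6 FPKM in MEFs and 165 in iPSCs. The dyskerin partners Gar1 and Nhp2 were at 4.96 and 32.2 FPKM in MEFs and at 16.7 and 88.6 in iPSCs, so that the particle's protein genes were high together with Dkc1. Tep1, a telomerase-associated protein also found in vaults, was the lower gene, with 5.62 and 2.07 FPKM. Pinx1, an inhibitor of telomerase, was at 9.83 and 7.95 FPKM, within the rule.

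Of 17 genes listed for the CST complex and telomere replication, 8 were higher and 2 lower in iPSCs relative to MEFs. Over all genes the shares were 21.1% and 25%, and the list median was 0.65. The 17 included Pot1b, the second POT1 gene, which was within the rule. Without Recql4, which was under 1 FPKM in MEFs, the count was 7 higher of 16. CST is a complex that fills in the strand opposite the overhang. Its largest subunit gene, Ctc1 (symbol 1500010J02Rik in the table), was at 16.4 FPKM in MEFs, 11.7 on day 3, 15.8 on day 6 and 65.6 in iPSCs. The other subunit genes, Obfc1 (STN1) and Ten1 (symbol 2310004N24Rik in the table), were within the rule, at 13.6 and 9.18 FPKM in MEFs and 12.3 and 12.8 in iPSCs. These 3 genes were named after their values were seen, to cover the complex. The helicase gene Blm was at 3.18 and 29.6 FPKM, the nuclease gene Dna2 at 1.75 and 18.8, and the fork protection gene Timeless at 2.89 and 18.6. The lower genes were Tnks1bp1, which encodes a tankyrase-binding protein, with 107 and 8.14 FPKM, and the nuclease gene Mus81 with 18.8 and 7.75.

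Of 28 listed genes of telomeric chromatin and of lengthening without telomerase, 22 were found, 10 were higher and 1 was lower in iPSCs relative to MEFs (median 0.96), against shares of 21.1% and 25% over all genes. Of the 10, Zscan4c, Zscan4f and Zscan10 were under 1 FPKM in every earlier library and entered the count through iPSCs alone, and among the 19 genes at or above 1 FPKM in MEFs 7 were higher. Zscan4c and Zscan4f belong to a cluster of near-identical genes of the 2-cell embryo that are known to lengthen telomeres in embryonic stem cells, and reads can be split among the copies. They were at 0.00934 and 0.0121 FPKM in MEFs, listed at 0 on day 3 and day 6, and at 5.28 and 6.07 FPKM in iPSCs. Zscan10, a zinc finger gene of pluripotent cells, was at 0.0112 and 14.0 FPKM. Nr2c2, an orphan receptor gene, was the lower gene, with 16.9 and 7.38 FPKM.

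All 18 listed genes of the damage response at chromosome ends were compared, and 7 were higher and 0 lower in iPSCs relative to MEFs (median 0.81), with 21.1% and 25% of all genes called in these directions. Parp1, an enzyme that marks DNA breaks, was at 15.0 and 160 FPKM, the checkpoint kinase gene Chek1 at 5.71 and 37.5, and Mdc1, a scaffold of break signalling, at 4.84 and 28.8.

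Proliferation genes moved with the same comparison. Of 16 such genes 15 were higher in iPSCs relative to MEFs and 0 lower, beside 21.1% and 25% of all genes, with a list median of 2.11. Examples were Bub1 (13.1 and 121 FPKM), Top2a (60.8 and 460) and Ccnb1 (25.6 and 182). At day 6 all 16 were above MEFs, with a median of 0.39 beside -0.02 over all genes compared. By the rule 0 of these 16 were called, beside 0.77% of all genes higher and 0.584% lower. The share of all genes above MEFs by any amount was not computed. The part of proliferation in the values of the 10 genes was not tested.

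**Figure D4:**
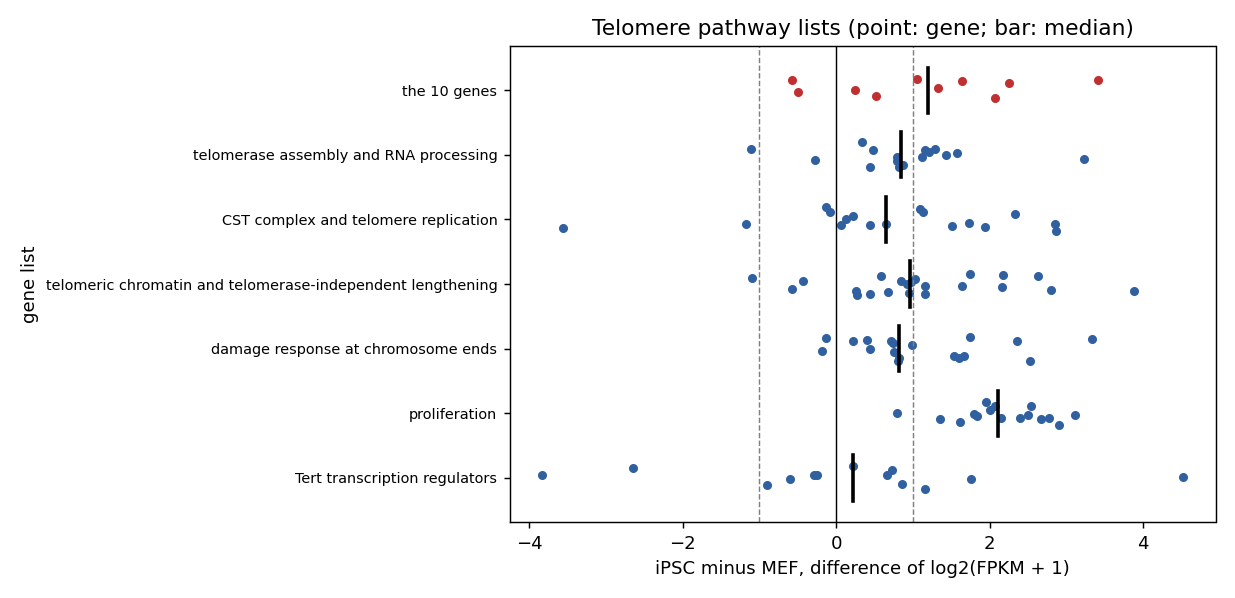
Differences between iPSCs and MEFs in log2(FPKM + 1) for the 10 genes and 6 gene lists of the pathway, with 1 point per gene at or above 1 FPKM in either library and a bar at each median. Dashed lines mark the rule of size; the proliferation list has the highest median at 2.11, the 10 genes stand at 1.20, and the regulators of Tert, with a median of 0.23, run from -3.83 to 4.53.

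Of 14 listed regulators of Tert transcription 13 were compared, and 3 were higher and 2 lower in iPSCs relative to MEFs. The share higher is near the 21.1% over all genes, and 25% of all genes were lower. Mycn and Wt1 were under 1 FPKM in MEFs and entered through iPSCs alone. The list median was 0.23 with them and -0.25 over the 11 genes at or above 1 FPKM in MEFs. Myc, an activator of Tert and a gene of the induced cassette, was at 16.8 FPKM in MEFs, 21.2 on day 3, 22.8 on day 6 and 1.83 in iPSCs. Its relative Mycn was listed at 0 in MEFs and on day 6, at 0.0106 FPKM on day 3 and at 22.1 in iPSCs. Mxd4, which opposes MYC on E-boxes, had 49.6 FPKM in MEFs and 2.55 in iPSCs. Sp1, whose product binds GC boxes, was at 28.2 and 97.7 FPKM, and Wt1 at 0.0214 and 1.28. The part of these regulators in the level of Tert was not tested.

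The genes most like Tert over the 4 libraries were sought among 12987 others by the root mean square distance between log2(FPKM + 1) profiles, each centred on its own mean. The 5 nearest were Bcat2, Khk, Fgfr1op, Ccbl1 and Harbi1, at distances of 0.013 to 0.0221. Khk, which encodes the fructose-phosphorylating enzyme ketohexokinase, was also near Tert in level, with 1.53 FPKM in MEFs, 1.23 on day 6 and 4.32 in iPSCs. The same measure for Rif1 gave Mtf2, Arhgap19, Gm13225, Ccnf and Hist1h2bj, at 0.0316 to 0.0547. Mtf2, a Polycomb accessory gene, was at 10.2, 12.7, 12.9 and 119 FPKM. With 4 libraries and most of the range in 1 of them, many genes fall near any such profile.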

How the data were processed

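Long RNA libraries of 4 stages, 1 each, were analysed, and the 4 small RNA libraries of the series were not used here. Per the file headers, the deposited values are FPKM, 1 per gene and stage, made by the authors. The submitters' processing notes name HISAT2, Cufflinks and the build mm9, without roles or versions. No source used here gives the gene models, strand setting, filters or pooling. Libraries were depleted of ribosomal RNA, per the labels' protocols, so RNA without a poly(A) tail can be present. FPKM is a share of a library, not molecules per cell, and resident and induced gene copies are not separated.

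Values were put on the log2(FPKM + 1) scale with Python 3.11.15, pandas 2.3.3 and numpy 2.4.6. The rule of size was applied to the whole table. The 10 genes and the lists were chosen with earlier results of these data known. Beyond the 10 genes and unless stated, named genes were the 3 highest and 2 lowest called genes per list, with Terc, Pot1b, Pinx1 and the Zscan4 genes. Listed symbols on no row were looked up by Ensembl identifier, which added 2 genes. Alternatives covered the pseudocount, the scaling, the threshold and the filter.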

Additional observations from a re-analysis of the deposited data

How the results depend on the processing

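No call has a replicate check. No paired analysis was possible because every stage had a single library, which also left no replicate to drop. Fragment counts behind single values are unknown. Of 98 counts and summary values under alternatives, 94 stayed within 1.5 times the value reported. Most of the 98 were counts of 0 under the main rule, and a 0 that stayed 0 is among the 94. A higher threshold or minimum cannot raise a count of 0. Dropping the filter cannot change any of the 10 genes, all at or above 1 FPKM throughout. The 94 is therefore no measure of stability. With a log2 difference of at least 2, the genes higher in iPSCs were 3 against MEFs (Dkc1, Terf1 and Rif1) and 1 against day 6 (Rif1). With a log2 difference of at least 0.5, 1 gene was lower in iPSCs than in MEFs (Terf2ip). The share of all genes called was computed under the main rule only, so counts under other settings have no background beside them. The median difference of the 10 genes between iPSCs and MEFs was 0.774 with a pseudocount of 5. With that pseudocount 5 genes were higher in iPSCs, without Tert. A minimum of 5 FPKM gave the same 5, but there Tert, at most 4.19 FPKM, was not compared at all. Under that pseudocount Tert differed from MEFs by 0.50 and from day 6 by 0.57. Rescaling to the same upper quartile moved the median of all genes between iPSCs and MEFs by 0.17, and to the same FPKM sum by 0.169. Relative to that median, Terf2 stood at -0.45 as deposited and at -0.46 and -0.51 after these rescalings, and Terf2ip at -0.54, -0.57 and -0.65. No difference between iPSCs and MEFs changed sign in any of the 10 genes under the 2 other pseudocounts and 3 rescalings. At day 6 against MEFs, 2 of 10 did (Pot1a and Rtel1).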

Other observations

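Germ cell genes were listed at low values before the iPSC stage. Ddx4, a germ cell RNA helicase gene, had 0.0284 FPKM in MEFs and 11.1 in iPSCs. Dazl, an RNA-binding protein gene of germ cells, was at 0.0621 and 26.3 FPKM, and Sycp3, a component of the meiotic chromosome axis, at 0.669 and 20.3. All 3 were under 1 FPKM in MEFs, on day 3 and on day 6, so they enter a comparison through iPSCs alone and their number higher says nothing further. Of the genes of the 2-cell embryo listed as markers, Zscan4c was found and Zfp352 was not. Whether these values come from all cells of the iPSC culture or from few cannot be told apart in bulk RNA.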
